A study of Homo sapiens with 4 samples.

Results

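The cells described here are those that gave the largest share of their transcripts to MALAT1 and NEAT1 in single cell RNA-seq of HCEC 1CT, a line of human colon epithelium made immortal by TERT and CDK4. Transcripts were counted as UMIs, that is, distinct molecules per gene and cell barcode. Barcodes with at least 500 genes and under 5% of UMIs from mitochondrial genes were kept, and in each library the top 5% of kept cells by the summed share of MALAT1 and NEAT1 were taken as members. This gave 224 members of 4471 kept cells, out of 9205 barcodes, and the other 4247 kept cells served as the comparison. The line carried either a scrambled control shRNA, shScr, or shAPC, which targets the tumour suppressor APC. Both were kept under puromycin in the same serum-poor medium, and harvested at day 3 or day 7. Values are given by library in the order shScr then shAPC at day 3, followed by shScr then shAPC at day 7. Each of these 4 groups held 1 library, so that no condition had a replicate and the 4 libraries stood as the replicates of the contrast between members and other cells. Members numbered 50, 37, 76 and 61 and other cells 948, 706, 1439 and 1154 in that order.

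MALAT1 and NEAT1 are long noncoding RNAs (lncRNAs) that stay in the nucleus. MALAT1 gathers in nuclear speckles, the bodies that store splicing factors, and NEAT1 is the scaffold on which paraspeckles form. MEG3 and KCNQ1OT1, which served as further markers, are imprinted lncRNAs, the first transcribed from the maternal allele and the second, antisense to KCNQ1, from the paternal allele. Most messenger RNA leaves the nucleus, and the transcripts of ribosomal proteins and of metabolic enzymes make up much of the cytoplasmic pool.

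In the hg38 build with GENCODE 44 all 4 markers were annotated as lncRNA. MALAT1 (ENSG00000251562) lay at chr11:65497640-65508073 and NEAT1 (ENSG00000245532) at chr11:65422774-65445540, both on the plus strand. MEG3 (ENSG00000214548) lay at chr14:100779410-100861031 on the plus strand and KCNQ1OT1 (ENSG00000269821) at chr11:2597308-2700003 on the minus strand. The libraries were made from the 3′ end of polyadenylated RNA with a primer that pairs with runs of A, so the stretch of exon richest in A is shown for each marker, with the window of 20 bases that holds the most A in capitals. The printed stretches of 60 bases lay at chr11:65506079-65506138 for MALAT1, chr11:65440825-65440884 for NEAT1, chr14:100850584-100850643 for MEG3 and, on the minus strand, chr11:2610697-2610756 for KCNQ1OT1.
MALAT1: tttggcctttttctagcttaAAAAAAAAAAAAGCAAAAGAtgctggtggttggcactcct
NEAT1: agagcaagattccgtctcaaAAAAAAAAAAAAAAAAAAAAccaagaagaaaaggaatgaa
MEG3: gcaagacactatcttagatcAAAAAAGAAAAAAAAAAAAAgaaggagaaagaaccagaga
KCNQ1OT1: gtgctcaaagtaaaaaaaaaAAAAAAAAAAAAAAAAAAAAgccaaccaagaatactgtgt
The window held 17 A of 20 bases in MALAT1, 20 in NEAT1, 19 in MEG3 and 20 in KCNQ1OT1, and all 4 genes had at least 2 runs of 8 or more A in their exons. Whether reads began at these windows was not tested.

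APC, the target of the shRNA, had 639 UMIs in the kept cells of shScr day 3 and 586 in those of shScr day 7, against 191 and 187 in shAPC day 3 and shAPC day 7. Per 1000000 UMIs (CPM) these were 16.1, 19.2, 5.47 and 6.61, so both shAPC libraries had less APC than both shScr libraries. The kept cells summed to between 28273866 and 39716137 UMIs per library, with a median between 21437 and 51854 UMIs per cell. The mitochondrial limit had removed 233 and 183 barcodes at day 3 and 799 and 1389 at day 7 (shScr, then shAPC), the last being more than the 1215 cells kept. No doublets were removed, and 3 of the 224 members were among the 5% of cells with the highest doublet scores. Between them the libraries shared 10 barcode sequences, none of which was a member in both libraries. The file headers name counting software 3.0.2 in shScr files and 3.0.0 in shAPC files, so version and shRNA cannot be told apart.

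The share that chose the members is given as a description. The median share of MALAT1 and NEAT1 in members was 6.50% of UMIs in shScr day 3, 4.49% in shAPC day 3, 18.4% in shScr day 7 and 10.0% in shAPC day 7, whereas the other cells had medians of 0.909%, 0.893%, 0.973% and 1.37%. The highest member reached 64.6%, 52.1%, 52.7% and 51.1%. At the lower end the members shaded into the other cells. The lowest member and the highest other cell had shares of 4.21% and 4.19% in shScr day 3, 3.65% and 3.62% in shAPC day 3, 5.05% and 4.80% in shScr day 7, and 3.98% and 3.97% in shAPC day 7.

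Most of the share came from MALAT1. In the summed UMIs of the members MALAT1 took 5.73% in shScr day 3, 3.96% in shAPC day 3, 17.9% in shScr day 7 and 5.43% in shAPC day 7, against 1.03%, 1.01%, 0.993% and 1.30% in the other cells. NEAT1 took 0.739%, 0.706%, 1.43% and 0.749% in the members, against 0.312%, 0.296%, 0.217% and 0.297%. Only 2 of 224 members had more UMIs of NEAT1 than of MALAT1, and 1 had none of NEAT1. Over all kept cells of a library the shares of the pair went together, with Pearson's r of 0.575, 0.799, 0.577 and 0.532 and Spearman's rho of 0.603, 0.707, 0.484 and 0.630 in the order above, which are descriptions over cells that share a library and a denominator.

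Cells were also chosen by one of the pair, with the other left out of the choice. Both genes made up the rule for members, and a cell's UMIs are the denominator of both shares. The tests below are therefore no independent support for the pair. CPM in this comparison were scaled by TMM, edgeR's trimmed mean factors, with the choosing gene left out of the totals. In the top 5% of cells by MALAT1 alone, NEAT1 stood at 7933, 6082, 10585 and 7167 CPM in the 4 libraries, against 3587, 2777, 2475 and 3468 CPM in the other cells. NEAT1 was thus higher in 4 of 4 libraries, by a log2 fold change of 1.35 (SE 0.37, adjusted p = 0.0380, edgeR's quasi-likelihood test over 12817 genes). In the top 5% by NEAT1 alone, MALAT1 stood at 38240, 23029, 79560 and 38329 CPM, against 11958, 9499, 11003 and 14919 CPM. MALAT1 was also higher in 4 of 4 libraries, by 1.78 (SE 0.30, adjusted p = 7.52e-06, the same test over 12895 genes).

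**Figure D1:**
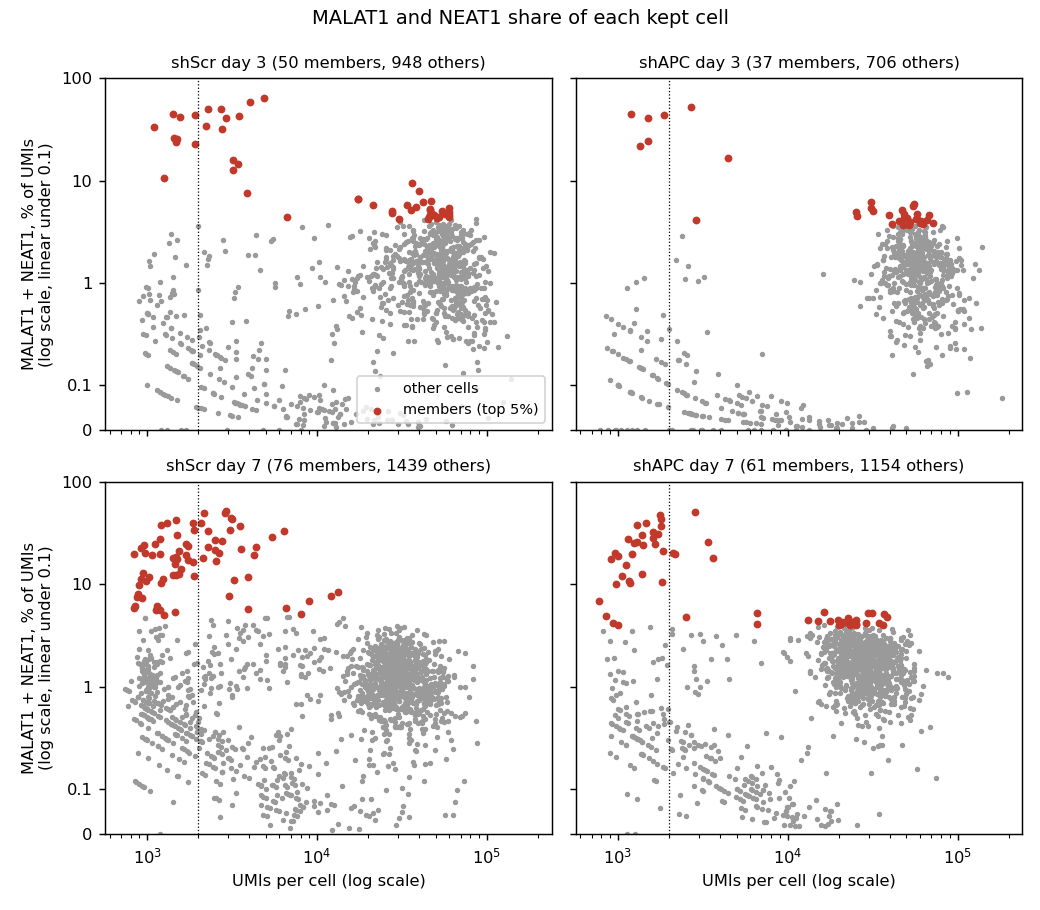
Share of UMIs from MALAT1 and NEAT1 (y axis, %, log scale above 0.1) against UMIs per cell (x axis, log scale) for each kept cell, one panel per library, members in red, other cells in grey and a dotted line at 2000 UMIs. In 3 libraries the members ranged from shallow cells with a large share to deep cells near the lower end of the members' shares, while in shScr day 7 no member lay above 13321 UMIs.

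Members spanned a wide range of depth. In shScr day 3 and shAPC day 3 the median member had 24373.5 and 48539 UMIs and the median other cell 42062 and 52262.5. In shScr day 7 and shAPC day 7 it had 1628.5 and 2106 UMIs, against 22853 and 24978. The log2 ratio of the medians was −0.79, −0.11, −3.81 and −3.57 in this order. UMIs per cell are the denominator of the share, so the difference was not tested.

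Cells under 2000 UMIs made up 9 of 50, 5 of 37, 46 of 76 and 30 of 61 members, or 18.0%, 13.5%, 60.5% and 49.2%, and 9.49%, 9.35%, 18.8% and 8.49% of the other cells. Of the 116 members with a share over 10%, 75 lay under 2000 UMIs. The 62 members with a share under 5% were all from shScr day 3, shAPC day 3 and shAPC day 7, at 14, 24 and 24 cells. Among cells of at least 30000 UMIs, members were 3.79% in shScr day 3 and 5.01% in shAPC day 3. They were 0% in shScr day 7 (0 of 428 cells) and 1.30% in shAPC day 7. For that 0 a floor of 3 counts gives 0.701%, which is a rough limit and no exact interval. Among cells under 2000 UMIs members were 9.09%, 7.04%, 14.5% and 23.4%.

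Each cell's UMIs were also split into 2 random parts. When cells were chosen on 1 of the 2 parts, 216 of the 224 members were chosen again. In the UMIs not used for choosing, all cells chosen on that part had median shares of 6.34%, 4.48%, 18.4% and 10.5%. The cells not chosen on it had 0.897%, 0.880%, 0.963% and 1.37%.

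A common limit, rather than the top 5% of each library, lets the number of such cells differ between libraries. Over a share of 10% lay 20 of 998 cells of shScr day 3 (2.00%, exact Clopper-Pearson 95% interval 1.23 to 3.08), 7 of 743 of shAPC day 3 (0.942%, 0.380 to 1.93), 58 of 1515 of shScr day 7 (3.83%, 2.92 to 4.92) and 31 of 1215 of shAPC day 7 (2.55%, 1.74 to 3.60). Both shScr libraries had the higher value at their day and both day 7 libraries the higher value for their shRNA. The intervals of shScr and shAPC overlapped at either day, they cover counting error only, and with 1 library per group no difference between conditions could be tested. Over a share of 5% lay 3.61%, 1.75%, 5.02% and 3.05% of cells in the same order. With every cell thinned to 1000 UMIs and shallower cells left out (11, 13, 91 and 25 cells), 2.03%, 0.959%, 3.58% and 2.18% lay over 10%.

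**Figure D2:**
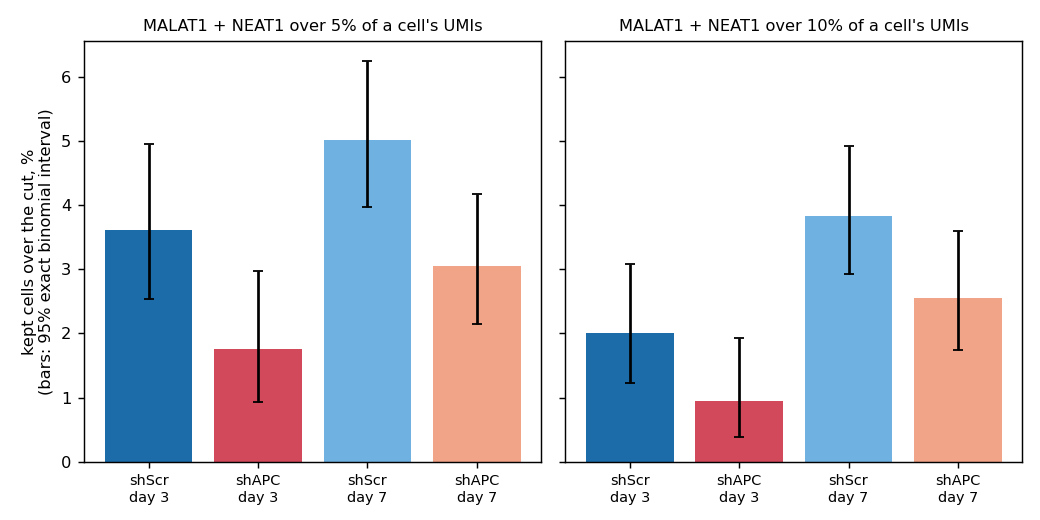
Share of kept cells (y axis, %) in which MALAT1 and NEAT1 together exceeded 5% (left) or 10% (right) of UMIs, one bar per library with the exact 95% binomial interval. ShScr day 7 was highest and shAPC day 3 lowest at both limits, at 3.83% and 0.942% over 10%.

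Members and other cells were then compared across all genes other than MALAT1 and NEAT1. UMIs were summed over each class in each library, and edgeR was fitted with the library as a block. From here on CPM were again scaled by TMM, with both MALAT1 and NEAT1 left out of the totals. Of 12903 genes tested, 173 were higher in members (1.34%) and 166 lower (1.29%) at an adjusted p under 0.05, and 153 of each had the same sign in 4 of 4 libraries. With total UMIs in place of TMM 27 genes were higher and 33 lower, and of the 29 named genes past the test 15 no longer passed. With no library block 15 were higher and 68 lower. Among the higher genes stood nuclear lncRNAs and genes of nuclear speckles, and most of the genes of mitosis were lower. Against other cells matched on UMIs within each library, 6 genes of 8092 were higher and 62 lower. Of these 6 and 61 had also passed against all other cells, while 116 of 116 higher and 123 of 123 lower genes that were still tested kept their sign. The match fell short in shAPC day 7, where members had a median of 2106 UMIs and the matched cells 3347. Leaving out shAPC day 3 left 79 lower genes. The members of shScr day 7 were the shallowest and stood apart in the levels given below, and without that library 170 genes were higher and 334 lower.

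KCNQ1OT1 and MEG3, the further markers of the label as rich in nuclear lncRNA, had not been used to choose the cells. They were picked with earlier results of these data known, so their values are no independent check of the label. KCNQ1OT1 stood at 51.2, 57.8, 182 and 198 CPM in members, from 58, 81, 43 and 110 UMIs, and at 21.1, 20.6, 30.4 and 64.2 CPM in other cells. It was higher in 4 of 4 libraries by a log2 fold change of 1.71 (SE 0.20, adjusted p = 3.02e-07). MEG3 stood at 793, 483, 4289 and 1470 CPM in members and at 370, 261, 421 and 511 CPM in other cells, a log2 fold change of 1.68 (SE 0.34, adjusted p = 0.00158). The MEG3 difference was largest in shScr day 7, with a log2 ratio of 3.35 against 1.10 in shScr day 3, 0.89 in shAPC day 3 and 1.52 in shAPC day 7. Without shScr day 7 the log2 fold change was 1.16 for MEG3 and 1.47 for KCNQ1OT1. With other cells matched on UMIs KCNQ1OT1 remained past the test and MEG3 did not (adjusted p = 0.141, log2 fold change 1.84). In shAPC day 7 the matched cells were deeper than the members, as given above.

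Of the list of other nuclear lncRNAs, 12 of 16 genes were in the matrix, 11 were tested, 5 were higher and none lower, with a median log2 fold change of 0.39 against −0.04 over all genes tested. Besides the markers these were FTX, a regulator in the X inactivation centre (1.49), PURPL, a lncRNA induced by p53 (1.60), and MIR22HG, the host of miR-22 (0.84). The other 6 did not pass the test, with PVT1 at 0.39, HOTAIRM1 at 0.26, JPX at 0.003, CYTOR at −0.06, HOTAIR at −0.87 and DLEU2 at −2.07. In the GENCODE annotation, 52 of 172 matched higher genes were lncRNAs (30.2%), as were 1 of 166 lower genes (0.602%) and 1085 of 12846 tested genes (8.45%).

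The list of nuclear speckle proteins and of transcripts known for introns held back in the nucleus had 4 of 25 genes higher and none lower, with a median of 0.26. PNISR, a speckle protein rich in serine and arginine, was higher by 1.14 (SE 0.23, adjusted p = 0.00170), PNN, the splicing-linked protein pinin, by 1.01, NKTR, a cyclophilin with a serine and arginine rich tail, by 0.94, and SRSF5, a splicing factor, by 0.88. SRSF3 was the lowest of the list at −0.71 (adjusted p = 0.0591). The structural speckle genes SON and SRRM2 were at 0.16 and −0.26 and did not pass. None of 15 paraspeckle proteins passed the test, and their median was −0.20, or 0.02 with total UMIs in place of TMM. SFPQ was at −0.14, NONO at −0.29 and HNRNPK at −0.20, and none of these 3 partners of NEAT1 passed.

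The 12 highest genes of at least 50 CPM, with the same sign in 4 of 4 libraries, included both lncRNAs and coding genes. RSRP1, which encodes a serine and arginine rich protein, stood at 71.5, 69.3, 509 and 142 CPM in members and at 29.4, 30.1, 39.8 and 51.9 CPM in other cells, a log2 fold change of 1.89 (SE 0.26, adjusted p = 5.34e-06). MIR222HG, the host of miR-221 and miR-222, was higher by 1.72 (SE 0.22), N4BP2L2 by 1.62 (SE 0.30), WSB1, a substrate adaptor of a ubiquitin ligase, by 1.33 (SE 0.21), and KANSL1, a subunit of a histone acetyltransferase complex, by 1.32 (SE 0.28). POLR2J3 (1.24), whose reads may be split with near-identical copies of the gene, VMP1 (1.24), which encodes an ER membrane protein of autophagy and hosts miR-21, ANKRD28 (1.23), ARHGAP24 (1.21) and the lncRNA AC092807.3 (1.20) completed the set. For all 12 genes the log2 ratio was highest in shScr day 7, between 2.30 and 3.70. Without that library RSRP1 stood at 1.30 and N4BP2L2 at 0.96.

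**Figure D3:**
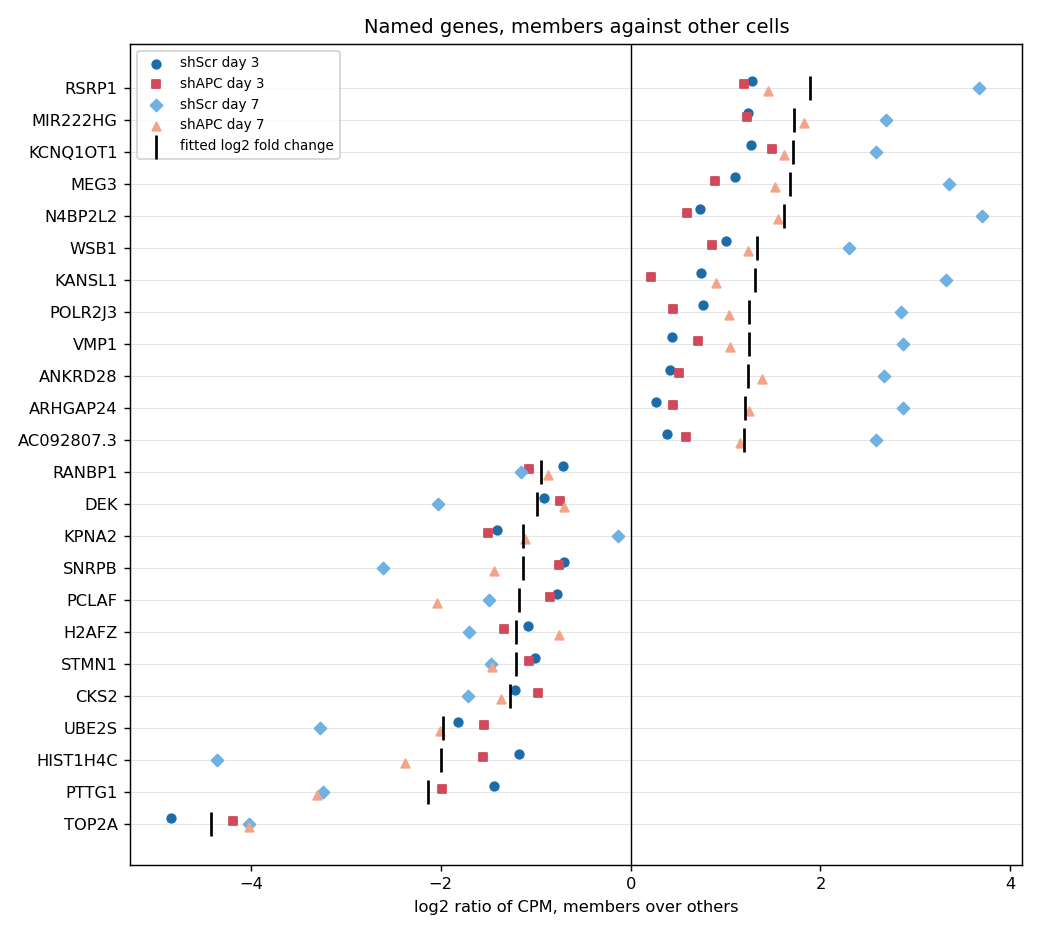
Log2 ratio of CPM, members over other cells (x axis), in each of the 4 libraries (symbols) with the fitted log2 fold change (black bar) for the 12 highest and 12 lowest genes past the test. The 4 symbols lie on one side of 0 for each gene, and TOP2A is lowest, between −4.84 and −4.01.

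The genes of mitosis were lower in members. Of 54 tested G2M genes 40 were lower, none was higher and all 54 had a negative log2 fold change, with a median of −2.06. TOP2A, the topoisomerase that untangles chromosomes before division, had 6, 11, 1 and 2 UMIs in the members of the 4 libraries, or 5.29, 7.85, 4.24 and 3.59 CPM, against 156, 145, 70.6 and 60.3 CPM in other cells. Its fitted log2 fold change was −4.41 (SE 0.30, adjusted p = 1.79e-13). For the 1 UMI of shScr day 7 the log2 ratio without TMM was −3.23 with an exact 95% counting interval of −8.54 to −0.75, and for the 2 UMIs of shAPC day 7 it was −3.97 (−7.01 to −2.11). CKS2 (−1.27), a partner of cyclin-dependent kinases, and TUBB4B (−0.90), a tubulin, were lower too. HMGB2 (−3.08), a chromatin protein, BIRC5 (−2.91), which encodes survivin, and UBE2C (−2.75), a ubiquitin-conjugating enzyme of the anaphase-promoting complex, lay under 50 CPM.

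Among the 12 lowest genes of at least 50 CPM, most are known from the cell cycle or from chromatin. PTTG1, the inhibitor of separase, stood at 26.5, 19.3, 12.7 and 7.19 CPM in members, from 30, 27, 3 and 4 UMIs, and at 72.2, 76.5, 121 and 72.3 CPM in other cells, a log2 fold change of −2.13 (SE 0.25, adjusted p = 3.02e-07). In shScr day 7, where members had 3 UMIs, its ratio without TMM was −2.43 (exact 95% counting interval −4.71 to −0.88). UBE2S, a further enzyme of the anaphase-promoting complex, was lower by −1.98, HIST1H4C, a histone H4 gene used in S phase, by −2.00, H2AFZ, a histone variant, by −1.20, STMN1, a microtubule destabiliser, by −1.21, PCLAF, a PCNA-binding factor, by −1.18, and DEK, a chromatin protein, by −0.98. SNRPB, a core spliceosome protein (−1.14), RANBP1 (−0.94) and KPNA2 (−1.13), the last pair from nuclear transport, were lower as well. KPNA2 turned to 0.15 when every cell was thinned to 700 UMIs.

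S phase genes were lower in 14 of 41 cases and higher in none, with a median of −1.09. TYMS, the thymidylate synthase, was lower by −1.70 (SE 0.27, adjusted p = 5.30e-05), RRM2, a subunit of ribonucleotide reductase, by −2.92, and PCNA, the sliding clamp of replication, by −0.87. The medians by library were −1.11, −1.45, −0.92 and −1.22 for S phase and −2.40, −2.70, −1.20 and −3.03 for G2M. Both lists were negative in each library. Without shScr day 7 the G2M median was −2.37 with 44 genes lower, and the S phase median −1.27 with 21 genes lower.

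The ratios of the cytoplasmic transcripts differed between libraries. By the test 1.18% of ribosomal protein genes and 3.03% of respiratory chain genes were lower, 1 gene in each list. Over all genes tested the share was 1.29%, so these counts do not set the lists apart. The 85 ribosomal protein genes had a median log2 fold change of −0.43, or −0.19 with total UMIs in place of TMM, and only RPL39L, a paralog of RPL39, passed the test (−1.89, SE 0.27). By library the medians were −0.26 in shScr day 3, 0.16 in shAPC day 3, −1.49 in shScr day 7 and −0.18 in shAPC day 7. Over all genes tested the median in shScr day 7 was −0.41. The TMM factor of that library was 1.55 for members and 0.874 for other cells. This scaling makes its member ratios lower than plain shares of UMIs would. The 22 abundant cytoplasmic transcripts, such as those of actin, GAPDH and EEF1A1, had a median of −0.26 (−0.02 with total UMIs) with none past the test, and −0.17, 0.11, −1.00 and −0.29 by library. Of 33 nuclear-encoded respiratory chain genes all had a negative log2 fold change (median −0.44) and 1, NDUFB9 of complex I, passed (−0.89). All 13 mitochondrial mRNAs failed to pass, with a median of −0.34, at −0.07, 0.32, −1.65 and −0.07 by library. MT-CO2, a subunit of cytochrome oxidase, stood at 9149, 9764, 2592 and 10728 CPM in members and 11276, 8601, 10474 and 11430 CPM in other cells. Without shScr day 7 the medians were −0.10 for ribosomal proteins, −0.09 for abundant cytoplasmic transcripts, −0.26 for the respiratory chain and 0.08 for mitochondrial mRNA, the last having turned in sign.

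Cell by cell, the same groups were taken as shares of UMIs with MALAT1 and NEAT1 left out. The median mitochondrial share of members was 3.32%, 3.55%, 1.82% and 3.48%, against 3.41%, 3.59%, 3.38% and 4.04% in other cells. The member value was the lower one in 4 of 4 libraries, with a mean difference of −0.563 percentage points (SD 0.704, n = 4 libraries, two-sided exact permutation p = 0.125, the smallest that 4 libraries allow), and the limit of 5% set a ceiling for both classes. The median share of ribosomal protein transcripts was 29.4%, 31.3%, 17.3% and 20.2% in members and 34.3%, 30.1%, 33.6% and 38.0% in other cells. The member value was the lower one in 3 of 4 libraries, all but shAPC day 3, with a mean difference of −9.42 percentage points (SD 9.13, n = 4, exact permutation p = 0.25). After thinning to 1000 UMIs, members had a median of 493.5, 502, 543 and 499 genes and other cells 487, 525, 492 and 467, a mean difference of 16.6 genes (SD 32.1, n = 4, exact permutation p = 0.375), with 140 cells left out as too shallow.

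**Figure D4:**
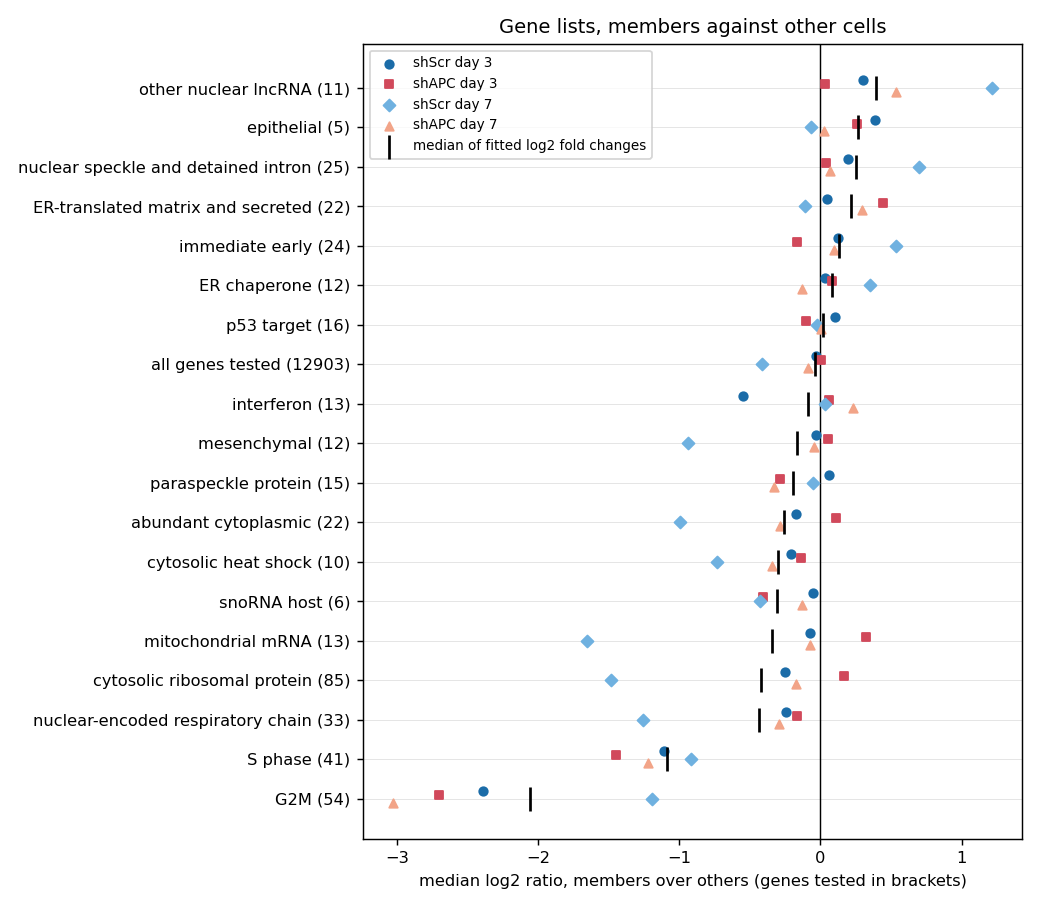
Median log2 ratio, members over other cells (x axis), of each gene list in the 4 libraries (symbols), with the median of the fitted log2 fold changes (black bar) and the number of genes tested in brackets. G2M and S phase lie below 0 in each library, at −2.06 and −1.09. After TMM scaling the cytoplasmic lists lie far below 0 in shScr day 7 alone, where the TMM factor was 1.55 for members and 0.874 for other cells.

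The shallow and the deep members were then set side by side, with no test. Within cells under 2000 UMIs, ribosomal protein transcripts made up 13.8%, 8.98%, 18.7% and 16.4% of the UMIs of members, other than MALAT1 and NEAT1, and 27.1%, 25.3%, 26.7% and 27.3% of those of other cells, the member value being the lower one in 4 of 4 libraries. Within cells of at least 2000 UMIs they made up 33.7%, 32.4%, 24.5% and 38.2% in members and 36.1%, 30.8%, 36.4% and 38.5% in other cells. In deep cells of shScr day 3, shAPC day 3 and shAPC day 7 the log2 ratios of these shares were −0.10, 0.07 and −0.01. Deep members of shScr day 7 had a median of 3127.5 UMIs and a log2 ratio of −0.57.

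Abundant cytoplasmic transcripts had log2 ratios of −0.88, −1.76, −0.52 and −0.81 in shallow cells and −0.03, 0.13, −0.20 and 0.22 in deep cells. Mitochondrial mRNA stood at 0.11, −0.69, −0.02 and 0.09 in shallow and 0.02, 0.18, −1.05 and 0.06 in deep cells. Nuclear lncRNAs other than the pair had log2 ratios of 4.51, 4.31, 3.64 and 3.57 in shallow cells and of 0.71, 0.31, 3.24 and 0.81 in deep cells. MEG3 alone held most of the list's UMIs in shallow members, with 73 of 85, 44 of 55, 279 of 352 and 232 of 308. In the more numerous shallow other cells it had 11 of 49, 3 of 50, 38 of 192 and 23 of 111. Deep members had 826 of 1426, 632 of 1450, 732 of 874 and 586 of 974 of the list's UMIs from MEG3. Deep other cells had 12196 of 28408, 9317 of 27937, 10999 of 26370 and 12000 of 26369. G2M transcripts had log2 ratios in deep cells of −1.16, −1.59, −0.47 and −1.51, and in shallow cells of −0.53, 0.19, −0.31 and −1.18, where members held 24, 17, 92 and 23 UMIs of them. These ratios describe sums within each library, and the difference between the depths was not tested. The deep members held 98.9%, 99.5%, 68.7% and 93.8% of the members' UMIs, so that the sums in the fit came mostly from them. Fewer UMIs per cell and less RNA per cell cannot be told apart in these data.

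**Figure D5:**
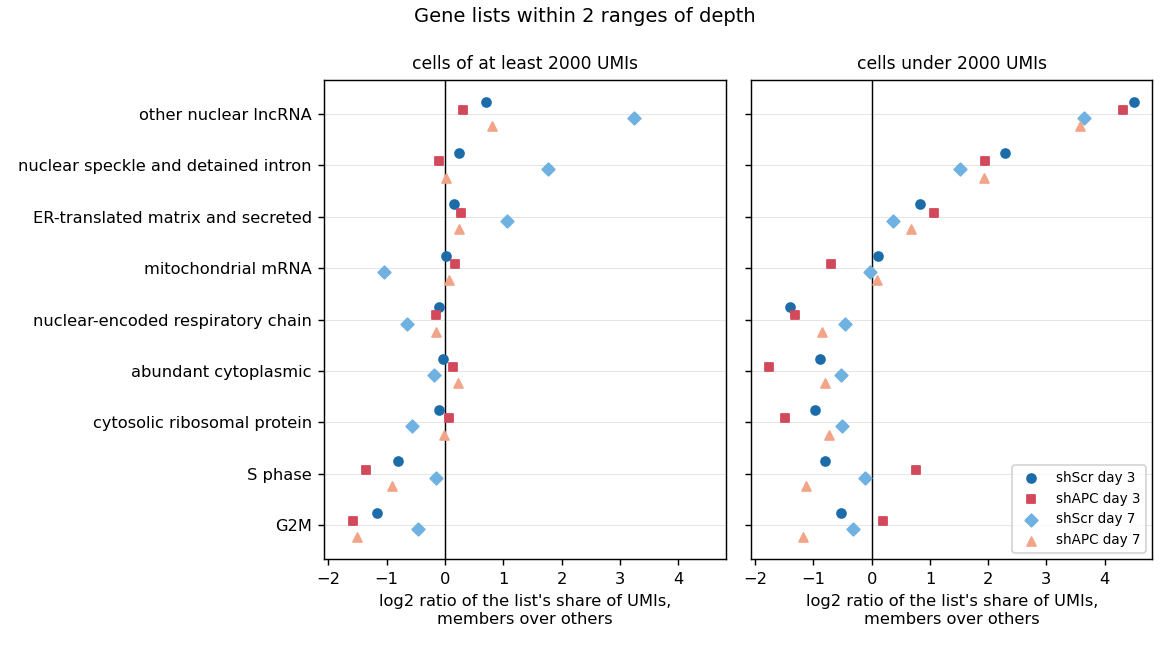
Log2 ratio of each list's share of UMIs, members over other cells (x axis), within cells of at least 2000 UMIs (left) and under 2000 UMIs (right), one symbol per library. Nuclear lncRNAs lie above 0 in both panels, with MEG3 holding most of their UMIs in shallow members and a large part in deep members. Cytosolic ribosomal protein genes lie between −1.49 and −0.52 in shallow cells, and G2M lies below 0 in deep cells of each library.

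Genes of matrix and secreted proteins, which are translated at the ER, had a median of fitted values above 0. The medians of the cytoplasmic lists were below 0, and the reason was not tested. Of 22 genes of matrix and secreted proteins 21 had a positive log2 fold change, with a median of 0.21, and none passed the test, while for the top 2% of cells the median was −0.24. The medians by library were 0.05, 0.45, −0.11 and 0.30, against −0.17, 0.11, −1.00 and −0.29 for abundant cytoplasmic transcripts. Both lists were thus above 0 in shAPC day 3 and below 0 in shScr day 7. Without shScr day 7 the median was 0.23 and 3 genes passed as higher. COL1A1, a fibrillar collagen, was at 0.44 (SE 0.31, adjusted p = 0.598) and FN1, fibronectin, at 0.20 (SE 0.37). In shallow cells the list had log2 ratios of 0.83, 1.07, 0.37 and 0.68 and in deep cells 0.16, 0.28, 1.06 and 0.25. None of 12 ER chaperones passed, with a median of 0.08.

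In each list of genes of stress or of cell identity, no gene or 1 gene passed the test. Over all genes tested 1.34% were higher and 1.29% lower, and counts this small do not tell a list apart from that share. None of 16 p53 targets (median 0.01), of 10 heat shock genes (−0.30) and of 13 interferon genes (−0.09) passed the test. CDKN1A, which encodes p21, was at 0.10 (SE 0.26). Of 24 immediate early genes 1 was lower, and the median was 0.13. It was ATF3, a stress-induced transcription factor, which stood at 0.882, 4.28, 8.49 and 1.80 CPM in members and at 1.21, 43.4, 17.6 and 3.99 CPM in other cells (log2 fold change −2.59, SE 0.49, adjusted p = 0.000840). Members had few UMIs of ATF3, 2 and 1 of them in shScr day 7 and shAPC day 7. Its log2 ratios by library were −0.41, −3.30, −1.04 and −1.10, so the fold change rested mostly on shAPC day 3. Of 6 tested snoRNA host genes 1, SNHG12, was lower (−1.07), with a median of −0.31. Of the mesenchymal markers 1 of 12 was higher, PDGFRB, the receptor of platelet-derived growth factor (1.12, SE 0.22), while VIM was at −0.27. None of 5 epithelial genes passed, with KRT8 at 0.26 (SE 0.26), and of 10 blood and endothelial markers CD68 alone had enough UMIs to be tested, at 0.20 (SE 0.23). APC itself was at −0.04 (SE 0.34) in members against other cells, with no test of this within each shRNA. Members had only 25, 9, 0 and 5 UMIs of APC. Its log2 ratio was 0.24 in shScr day 3, 0.33 in shAPC day 3 and 0.21 in shAPC day 7. In shScr day 7 members had no UMI of it, against 22.3 CPM in other cells.

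The contrast between members and other cells was also compared between days and between shRNAs, with 2 libraries on each side. By day 15 genes passed the test of the difference, 879 of 12903 having an unadjusted p under 0.05, and by shRNA 2 genes passed, with 343. At day 7 the member difference was larger than at day 3 by 1.98 on the log2 scale for N4BP2L2, by 1.75 for KANSL1 and by 1.72 for ARHGAP24. These differences rested on shScr day 7, where the log2 ratio was 3.70 for N4BP2L2, 3.33 for KANSL1 and 2.87 for ARHGAP24, against 1.56, 0.90 and 1.25 in shAPC day 7 and at most 0.75 at day 3. Without shScr day 7 they were 0.89, 0.41 and 0.88 and none of the 3 passed. By day 14 genes passed without shScr day 7, 779 without shAPC day 7, 1 without shScr day 3 and 0 without shAPC day 3 (edgeR, 211 with an unadjusted p under 0.05). By shRNA the genes were G0S2 (−4.77, shAPC minus shScr), an inhibitor of lipolysis, and CENPK (4.15), a centromere protein, both chosen after their values were seen. Without shAPC day 3 neither passed and no gene did (edgeR, 81 with an unadjusted p under 0.05), and without shScr day 3 661 genes passed. Members of both day 7 libraries were shallower than those of day 3, as given above, and the part of depth in the difference by day was not tested.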

How the data were processed

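Single cell RNA-seq libraries of HCEC 1CT cells were made on the 10x Genomics platform, with chemistry v2 per the labels and V3 per the study's methods, after retroviral (labels) or lentiviral (methods) transduction. The authors deposited raw UMI counts per gene and barcode from Cell Ranger, version 3.0.2 in the headers of both shScr files and 3.0.0 in those of both shAPC files. The annotation release was not given in the sources used here. The matrix held 33538 genes. Places and sequences came from hg38 with GENCODE 44.

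Members and gene lists were chosen with earlier results of these data known. Barcodes with at least 500 genes and under 5% mitochondrial UMIs were kept, and no doublets were removed. Scrublet scores from scanpy 1.11.5 (expected doublets 5%) served only to leave out the highest 5% as an alternative. Each group was 1 library, nothing says that libraries came from separate cultures, and p-values measure only the spread between these 4 libraries. Counts were summed per library and class, MALAT1 and NEAT1 were taken out of the table and the totals and not tested, and edgeR 4.0.16 (R 4.3.3; filterByExpr, TMM, quasi-likelihood test, design of library plus member, Benjamini-Hochberg adjusted p under 0.05) gave all adjusted p-values. Differences by day and by shRNA were interaction terms in separate fits. Ratios for a single library used a prior count of 2. Shares of UMIs were compared by an exact permutation test over signs of 4 differences, two-sided. Intervals are exact Clopper-Pearson or exact counting intervals, and they and the floor of 3 counts cover counting error only. In counts simulated for members against other cells (12443 genes tested), the edgeR test called 88.0% and 60.4% of genes changed by log2 2 and −2, 42.9% and 23.4% of those changed by 1 and −1, and 0.0408% of unchanged genes. DESeq2 1.42.0 was an alternative, as were other scalings, filters, choices of members and comparison cells, and each library left out.

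Named genes are the markers and APC, the 12 highest and 12 lowest genes past the test with 1 sign in 4 libraries and at least 50 CPM on average, and the 4 most abundant tested genes of each list. The value of 1 gene is not reported here. Other genes are named because they passed the test or lie at the end of a list, and were picked after their values were seen.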

Additional observations from a re-analysis of the deposited data

Results flagged for a closer look

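The difference between members and other cells was not the same at both days for 15 genes and under both shRNAs for 2 genes, by the interaction terms in edgeR at an adjusted p under 0.05, with 2 libraries on each side. Of the genes named above, 3 differed by day, with day 7 minus day 3 at 1.98 on the log2 scale for N4BP2L2, 1.75 for KANSL1 and 1.72 for ARHGAP24. None of these 3 passed without shScr day 7, at 0.89, 0.41 and 0.88. Members had a median of 24373.5 and 48539 UMIs at day 3 and of 1628.5 and 2106 UMIs at day 7, and the part of this depth in the differences was not tested.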

How the results depend on the processing

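Leaving out 1 library at a time gave 144 to 206 higher genes, against 173, and 79 (without shAPC day 3) to 334 (without shScr day 7) lower genes, against 166. The higher and lower counts were 27 and 33 with total UMIs in place of TMM, 106 and 75 by DESeq2, 15 and 68 with no library block, 376 and 591 for the top 10% of cells, 358 and 537 for cells chosen by NEAT1 alone, 321 and 319 with no mitochondrial limit, and 6 and 62 against other cells matched on UMIs. With no filter on low counts 252 genes were lower, with at least 2000 UMIs per cell 408 were lower, and with cells chosen on 1 part of their UMIs and compared on the other 114 were higher. After seeing the data, cells under 2000 UMIs were also taken alone, with members chosen anew as their top 5% (5, 4, 16 and 6 cells). Of 738 genes tested there, 73 were higher and 17 lower. Also after seeing the data, cells were thinned to 700 UMIs so as to weigh equally (271 higher of 3010). With total UMIs, DESeq2's test and no library block the sign was kept by 173 of 173 and 166 of 166 genes.

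Medians of the lists moved as follows. For the top 2% of cells they were 0.77 for nuclear speckles, −0.20 for p53 targets, −1.04 for heat shock, −1.49 for abundant cytoplasmic transcripts, −1.62 for the respiratory chain, −0.24 for ER-translated matrix, −0.65 for snoRNA hosts, −0.65 for epithelial genes, −0.98 for mesenchymal genes, −1.68 for mitochondrial mRNA and −2.29 for ribosomal proteins. For cells under 2000 UMIs they were 3.45 for other nuclear lncRNAs, 2.00 for nuclear speckles, 2.26 for immediate early genes, −0.63 for heat shock, −0.73 for abundant cytoplasmic transcripts, 0.59 for ER-translated matrix and 0.44 for ER chaperones. After thinning to 700 UMIs they were 2.24, 0.94, 0.053 and 0.67 for other nuclear lncRNAs, nuclear speckles, paraspeckles and immediate early genes, 0.46, 0.47 and 0.44 for p53 targets, ER-translated matrix and ER chaperones, and −0.68 and −0.97 for S phase and G2M, and KPNA2 reversed to 0.15. With total UMIs the median of all genes moved from −0.04 to 0.09, and those of paraspeckles, p53 targets, ER chaperones and snoRNA hosts were 0.018, 0.16, 0.29 and −0.10. By NEAT1 alone p53 targets, snoRNA hosts and epithelial genes were at 0.18, −0.52 and −0.13, and epithelial genes at −0.047 with no filter. Against matched cells snoRNA hosts were at 0.050 and S phase at −1.37. S phase was at −0.83 for the top 10%, −1.32 with at least 2000 UMIs, −0.73 with no mitochondrial limit and −1.43 with cells chosen on 1 part of their UMIs. The other 349 of 390 list values moved by less than 1 SD over libraries. The log2 ratio of median UMIs was 0.23 under 2000 UMIs, and in the top 2% the mitochondrial difference was −1.65 and the ribosomal protein difference −19.4 percentage points. Genes differing by day numbered 24 with no filter and 0 to 779 with 1 library left out, and genes differing by shRNA 0 to 661, these runs having been added after seeing the data. The cause of these moves was not tested.

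Of 622 values for the 29 named genes past the test, 536 kept sign and call, 85 kept sign only and 1 reversed. Members and other cells were paired within a library by the library block. No pairing between libraries by replicate number was made, since each group held 1 library. Depth limits the fit among cells under 2000 UMIs, in which 738 genes were tested.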
